A study of Homo sapiens with 4 samples.

Results

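The mitochondrial chromosome was taken as all 37 rows that the deposited gene tables place on chromosome MT, out of 57773 rows in all. The choice used position alone and no expression value. The rows comprise 13 protein-coding genes, 2 ribosomal RNA (rRNA) genes and 22 transfer RNA (tRNA) genes, of which 28 lie on the forward and 9 on the reverse strand of the reference. The 4 libraries hold RNA of A2780, an ovarian cancer cell line that is labelled WT and was grown in RPMI with serum. Libraries DMSO 1 and DMSO 2 received the vehicle DMSO, for which no separate time is given, and libraries wogonin 3 and wogonin 4 received the plant flavone wogonin at 10 ug/mL for 48 h. No label says that the libraries of a group are separate cultures, so every p-value measures the spread between these libraries, which may be technical.

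Human mitochondrial DNA is a small circle that is transcribed from both strands into long polycistronic precursors by a dedicated RNA polymerase. The tRNAs sit between most of the other genes, and their excision releases the mRNAs and rRNAs. The encoded proteins are core subunits of respiratory complexes I, III and IV and of the ATP synthase (complex V), and they are assembled with subunits encoded in the nucleus. A2780 is classed by its label as an ovarian adenocarcinoma, but the 8 epithelial and ovarian carcinoma markers examined were near 0, with a summed level between 0.354 and 1.52 CPM (reads of a gene per 1000000 reads of its library), and MUC16 had no read in any library. Of the 4 markers of other cells that were found, PTPRC and CD3E had no read, ALB had 17 reads over the 4 libraries, and the collagen gene COL1A1 lay between 6.91 and 13.2 CPM.

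Exon reads totalled between 11005921 and 11839562 per library, and gene reads, which include introns and genes with no listed exons, between 12026077 and 12571275. The deposited table lists 1 exon for each of the 13 protein-coding genes and none for the 24 rRNA and tRNA genes, so the latter were read from the gene counts. All 13 protein-coding genes passed the filter on low counts, as did both rRNA genes in the gene counts and none of the tRNA genes. The intron share of gene reads, over genes with exons, stood at 7.96% in wogonin 3 and at 5.26% to 5.61% in the other libraries, and values from exon and from gene reads are therefore both given where they differ.

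The reference sequences show which of these genes can share reads. GENCODE 29 transcripts (GRCh38) were matched by gene ID for all 37 genes, and all 37 have the length given in the deposited tables. The genes MT-ATP8 and MT-ATP6, both subunits of the ATP synthase, overlap by 46 bases on the same strand. The complex I genes MT-ND4L and MT-ND4 overlap by 7 bases. MT-ATP6 and the complex IV gene MT-CO3 overlap by 1 base on the same strand, which is not shown. The stretches below run 5′ to 3′, and capitals mark the bases that belong to both genes of a pair.
end of MT-ATP8: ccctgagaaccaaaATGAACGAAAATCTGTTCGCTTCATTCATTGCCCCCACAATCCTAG
start of MT-ATP6: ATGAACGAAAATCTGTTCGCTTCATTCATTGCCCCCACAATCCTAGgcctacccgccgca
end of MT-ND4L: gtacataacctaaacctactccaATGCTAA
start of MT-ND4: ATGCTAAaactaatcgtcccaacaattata

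A read that covers the capitals touches both genes of the pair, and how the authors assigned such reads is not given in the sources used here. In each pair shown the start codon of the second gene lies inside the first gene. The MT-ATP8 count came to 23.9% and 28.3% of the MT-ATP6 count in DMSO 1 and 2, and to 25.4% and 28.2% in wogonin 3 and 4. For MT-ND4L over MT-ND4 the values were 7.20% and 7.49% in DMSO and 8.42% and 8.31% in wogonin. The first ratio overlapped between the groups and the second was higher in both treated libraries.

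A further set of sequences bears on MT-ND3, a small complex I subunit whose gene is bounded on each side by a tRNA gene. The gene ends on a single base of its last codon, shown as a capital, and the stop codon of such a gene is known to be completed by the poly(A) tail. By length, 6 of the 13 protein-coding genes end on an incomplete codon, 5 of them on 1 base and 1 on 2 bases. The glycine tRNA gene MT-TG precedes MT-ND3 and the arginine tRNA gene MT-TR follows it.
MT-TG: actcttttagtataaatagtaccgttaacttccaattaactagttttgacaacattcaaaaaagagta
end of MT-ND3: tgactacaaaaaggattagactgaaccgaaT
MT-TR: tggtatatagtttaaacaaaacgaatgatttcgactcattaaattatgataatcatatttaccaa

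No read was counted for any tRNA. All 22 tRNA genes, MT-TG and MT-TR included, are listed at 0 in all 4 libraries, in total gene reads as in unique ones. They are 59 to 75 bases long, and they lie beside mRNA and rRNA genes with many reads. A count of 0 allows up to 3 counts per library, or 0.239 to 0.249 CPM of gene reads. Libraries were made with an mRNA kit, per the labels' protocols, so these zeros are a statement about the counted reads and not about tRNA levels.

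Nuclear DNA holds copies of mitochondrial sequence, and reads that match a copy equally well cannot be placed at a single site. Among all genes with exons 86.7% of gene reads were placed uniquely, over the 4 libraries together. For MT-ND3 and MT-ND4L the share was 100% in every library. MT-RNR1 and MT-RNR2 also stood at 100%, but these rows have no listed exons. It is unknown whether reads with several possible sites were counted for such rows. The 100% of the rRNA genes may therefore not be comparable with the shares of the mRNAs. The share was 91.2% for MT-ND1, 83.7% for MT-ATP6, 75.7% for MT-CO1 and 53.6% for MT-ND2. For the other 7 genes with reads it was at least 99.2%. MT-CO1 is the core subunit of complex IV, and MT-ND1 and MT-ND2 are membrane subunits of complex I.

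The 4 genes with the fewest unique reads all have close copies among the nuclear transcripts of GENCODE 29. Of the 50-base windows of MT-CO1, 49.5% were found letter for letter in a nuclear transcript, as were 46.7% of those of MT-ATP6, 43.6% of those of MT-ND2 and 22.1% of those of MT-ND1. No window of MT-ND3 or MT-ND4L was found. MT-CO2 and MT-CO3 had 28.98% and 30.6% of their windows in nuclear transcripts but 99.6% and 99.2% unique reads, so shared windows and unique reads did not follow each other gene by gene. The nuclear pseudogene MTND2P28 is 98.4% identical to MT-ND2, with 17 differences in 1042 aligned bases. One 60-base stretch of each is shown, with the base that differs as a capital.
MT-ND2: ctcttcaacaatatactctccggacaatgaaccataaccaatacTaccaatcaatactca
MTND2P28: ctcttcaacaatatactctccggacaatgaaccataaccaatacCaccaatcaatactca

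The copies themselves had almost no reads in the deposited tables. Of 188 nuclear rows named as copies, 16 had a read and together they held 108 gene reads over the 4 libraries. The 5 with the most reads were MTRNR2L12 (55 reads over the 4 libraries), MTRNR2L2 (13 reads), and MTND5P1, MTND5P28 and MTRNR2L8 (6 reads each). MTND2P28 (ENSG00000225630, chromosome 1, 565020 to 566063) was listed at 0 reads in all. For 157 of the 188 rows, MTND2P28 among them, the table lists no exons, and how reads were counted for such rows is not given. The low counts thus do not show whether the copies are transcribed.

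**Figure D1:**
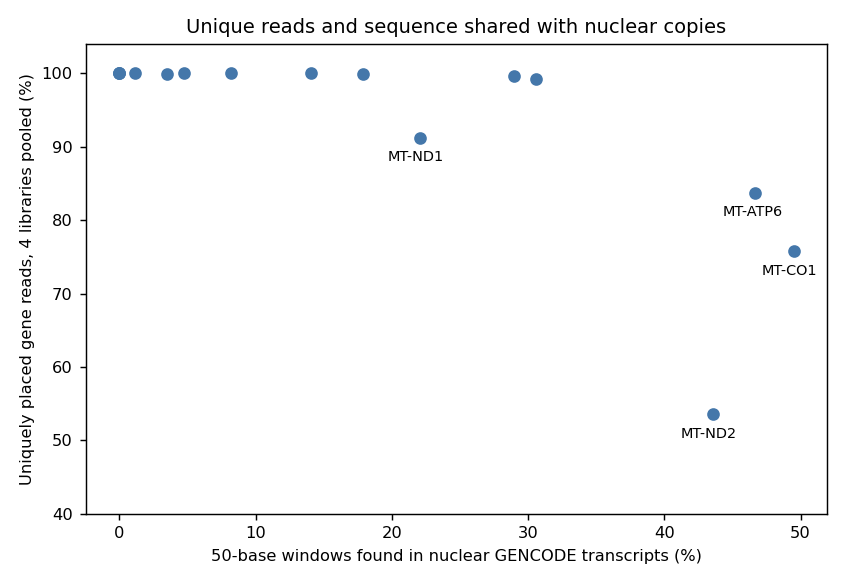
Each point is 1 of the 15 mitochondrial genes with reads: the share of its 50-base windows found in nuclear GENCODE 29 transcripts (x axis, percent) against the share of its gene reads that were uniquely placed, 4 libraries pooled (y axis, percent, starting at 40). The 4 genes below 95% on the y axis are named, from MT-ND1 at 91.2% down to MT-ND2 at 53.6%. The points of MT-RNR1 and MT-RNR2, rows without listed exons, may not be comparable with the others on the y axis.

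Mitochondrial mRNAs were among the most abundant transcripts of these cells. In TPM (reads per transcript length, scaled to the same total in every library, as the authors deposited them) the 13 genes summed to 7.21% and 6.41% of all TPM in DMSO 1 and 2, to 7.46% in wogonin 3 and to 12.96% in wogonin 4. Among genes with listed exons, which leaves out MT-RNR2, MT-CO1 ranked first in both DMSO libraries and in wogonin 3 and second in wogonin 4, where MT-CO2 led. The lowest of the 13, MT-ND6, still ranked 28 and 30 in the DMSO libraries, 29 in wogonin 3 and 16 in wogonin 4.

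Per length, MT-CO1 was highest in DMSO and MT-ND6, the single mRNA read from the other strand, was lowest in all 4 libraries. In DMSO the order of mean TPM began with MT-CO1 at 9776 ± 761 (SD, n = 2), which lay above all others in both libraries. MT-CO2, the complex I gene MT-ND4 and MT-CO3 followed at 7816 ± 1237, 7657 ± 507 and 7512 ± 502, and neighbours among these overlapped. MT-ATP6, MT-ND2, MT-ND1 and MT-ATP8 lay between 5837 and 4980 and also overlapped as neighbours. MT-CYB, the complex III subunit, stood apart at 3902 ± 288. It was followed by MT-ND3 (3046 ± 672), MT-ND4L (2607 ± 101) and MT-ND5 (2531 ± 223), which overlapped as neighbours, and by MT-ND6 at 2163 ± 177. The highest of the 13 was between 4.05 and 4.53 times the lowest in each library.

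That order was largely shared by all libraries. Spearman's rho of TPM across the 13 genes lay between 0.89 and 0.98 for the 6 pairs of libraries, as a description, since the genes share their precursors, lengths and library. One gene moved more than the others: MT-ND3 stood at rank 10 in DMSO 1, DMSO 2 and wogonin 4 and at rank 6 in wogonin 3.

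**Figure D2:**
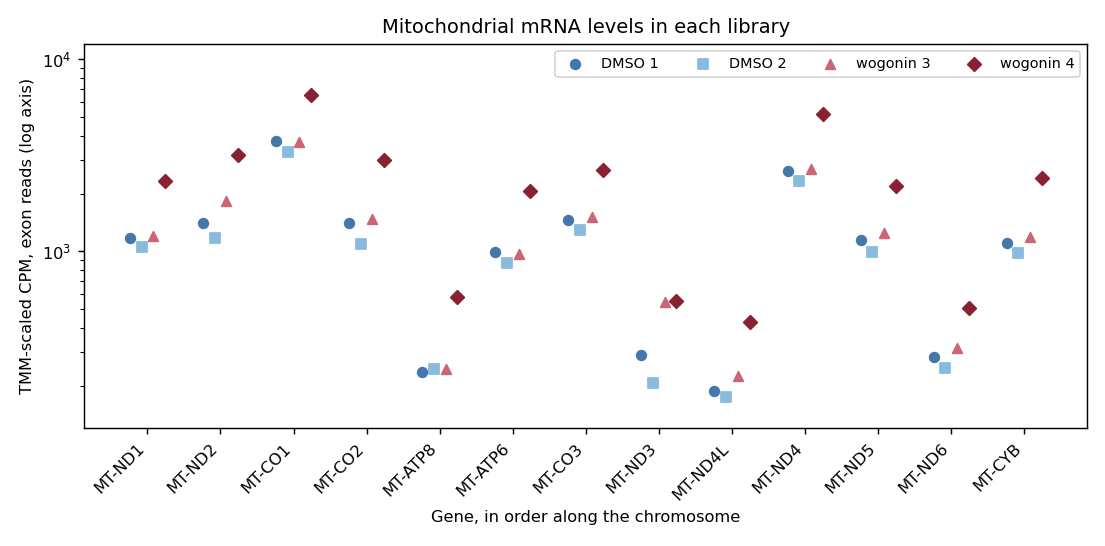
Level of each mitochondrial mRNA in each library (y axis, TMM-scaled CPM of exon reads, log axis), with genes in chromosome order on the x axis and 1 symbol per library. Wogonin 4 is the highest library for all 13 genes, while wogonin 3 lies near the DMSO libraries except at MT-ND2 and MT-ND3.

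The mitochondrial share of the reads was raised in 1 of the 2 treated libraries. The 13 mRNAs took 1.65% and 1.45% of the exon reads in DMSO 1 and 2, 1.67% in wogonin 3 (95% Wilson interval 1.66 to 1.68) and 3.03% in wogonin 4 (3.02 to 3.04). Wogonin 3 thus lay just above DMSO 1, and wogonin 4 far above the other 3. The group means were 1.55% ± 0.14 in DMSO and 2.35% ± 0.96 in wogonin (SD, n = 2 each), a difference of 0.80 percentage points. An exact 2-sided permutation test of this difference gave p = 0.333, the smallest that 2 against 2 libraries allow. Without wogonin 4 the difference was 0.12 points and without wogonin 3 it was 1.48. In bulk RNA, more of this RNA per cell and a change in which cells were sampled cannot be told apart.

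The 2 treated libraries differed from each other more in 12 of the 13 mitochondrial mRNAs than in any nuclear gene of high count in the same direction. CPM was scaled here by the trimmed mean of M-values (TMM), which sets the bulk of genes equal between libraries. Wogonin 4 exceeded wogonin 3 by a median log2 difference of 0.93 over the 13 genes, with a lowest value of 0.01 (MT-ND3) and, for the other 12, a range up to 1.24 (MT-ATP8). Of 1225 nuclear genes with a mean of at least 2000 exon reads, the highest difference between these libraries was 0.35. Above it lay 12 of the 13 mitochondrial genes, the lowest of them MT-ND6 at 0.70. In the other direction the lowest nuclear gene stood at -0.79, larger in size than the difference of MT-ND6. Between DMSO 2 and DMSO 1 the 13 genes lay between -0.48 (MT-ND3) and 0.05, and 4 of them fell below the range of -0.20 to 0.13 that held 95% of the nuclear genes. The level of mitochondrial mRNA thus had a wide spread within the treated group, and the fold changes below average over it.

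**Figure D3:**
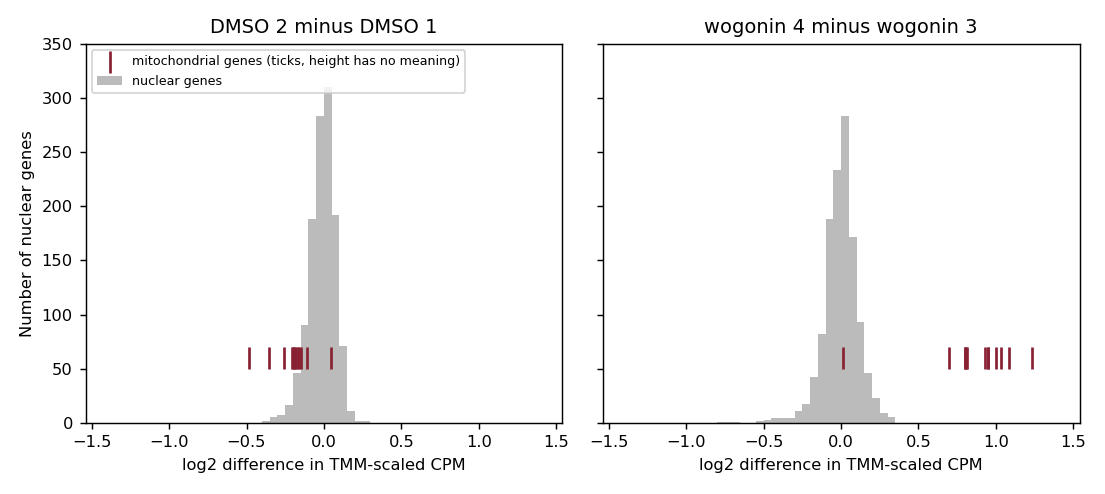
Differences within a group, as log2 of TMM-scaled CPM (x axes): grey bars count 1225 nuclear genes of at least 2000 mean exon reads per bin (y axis), and red ticks mark the 13 mitochondrial genes. Between the DMSO libraries 12 of the 13 ticks lie below 0, and between the treated libraries 12 of the 13 ticks lie to the right of the bars.

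Of the 13 mRNAs, 1 passed the test between the groups. Genes were tested with edgeR's quasi-likelihood test over all 13449 genes that passed the filter, with p-values adjusted by Benjamini-Hochberg over all of them and a threshold of 0.05. MT-ND3 was called higher, none was called lower, and 12 did not pass. Over all genes tested, 32.3% were called higher and 63.8% were called in either direction. The median log2 fold change of the 13 was 0.70, against -0.00066 over all genes tested. Their standard errors (SE) lay between 0.21 and 0.59, against a median of 0.10 over all genes. The count of 1 depended on the fit: it was 2 with DESeq2, 12 with limma-voom and 13 with a non-robust edgeR fit, all higher, where these fits called 26.0%, 32.4% and 32.3% of all genes higher. It was 11 without wogonin 3 and 5 without wogonin 4 (28.8% and 29.7% of all genes higher), with a median log2 fold change of the 13 of 1.15 and 0.18. The share of the 13 called higher thus lay below that of all genes in some fits and above it in others.

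MT-ND3 (ENSG00000198840, MT 10059 to 10404, forward strand) stood at 288 and 206 CPM in DMSO 1 and 2 and at 546 and 550 CPM in wogonin 3 and 4. Both treated libraries were above both DMSO libraries and close to each other. The log2 fold change was 1.15 ± 0.21 (SE, edgeR adjusted p = 0.031), from 247 ± 57.8 to 548 ± 2.67 CPM (SD, n = 2 each). The call was lost in the fits without wogonin 3 (log2 fold change 1.16, edgeR adjusted p = 0.19) and without wogonin 4 (1.14, edgeR adjusted p = 0.21), in which the lone treated library is assumed to vary like the DMSO pair. Over all 15 alternatives the adjusted p ran from 4.8e-06 to 0.21.

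The complex I gene MT-ND2 (ENSG00000198763, MT 4470 to 5511) stood at 1408 and 1177 CPM in DMSO and at 1822 and 3169 CPM in wogonin 3 and 4. The groups did not overlap, but the treated libraries differed widely, and the log2 fold change of 0.95 ± 0.40 did not pass (edgeR adjusted p = 0.18). MT-ND2 passed with DESeq2 (adjusted p = 0.041), limma-voom (0.0015) and the non-robust edgeR fit (0.00080) and, with 1 treated library each, in the fits without wogonin 3 (log2 fold change 1.30) and without wogonin 4 (0.49). In uniquely placed exon reads its log2 fold change was 0.90 (edgeR adjusted p = 0.17).

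For the largest mRNA count of the chromosome, MT-CO1 (ENSG00000198804, MT 5904 to 7445), the values were 3755 and 3297 CPM in DMSO 1 and 2 and 3725 and 6528 CPM in wogonin 3 and 4. Wogonin 3 lay between the DMSO libraries and wogonin 4 above them, so the groups overlapped. Its log2 fold change of 0.54 was the lowest of the 13 (SE 0.40, edgeR adjusted p = 0.36). MT-CYB (ENSG00000198727, MT 14747 to 15887) read 1106 and 977 CPM in DMSO and 1185 and 2422 CPM in wogonin, a log2 difference of 0.79 ± 0.50 that did not pass (edgeR adjusted p = 0.30). Wogonin 3 was close to DMSO 1 in this gene too.

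MT-ND6 (ENSG00000198695, MT 14149 to 14673, reverse strand) read 284 and 248 CPM in DMSO and 313 and 508 CPM in wogonin, a log2 difference of 0.63 ± 0.35 that did not pass either (edgeR adjusted p = 0.25). It is transcribed from the opposite strand to its neighbour MT-ND5, and its read count was 24.7% and 24.9% of that of MT-ND5 in the DMSO libraries, 25.3% in wogonin 3 and 23.2% in wogonin 4. The ratio of the transcripts of the 2 strands thus overlapped between the groups. Whether the counting used strand is not given in the sources used here, so reads from the 2 strands may be mixed.

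The other 8 mRNAs had log2 fold changes between 0.59 (MT-CO3) and 0.85 (MT-ND4L), and none passed. By complex, the 7 complex I genes summed to 7097 and 6186 CPM in DMSO and to 8014 and 14318 CPM in wogonin 3 and 4. The 3 complex IV genes summed to 6614 and 5694 CPM in DMSO and to 6725 and 12145 CPM in wogonin. The 2 genes of the ATP synthase gave 1230 and 1111 CPM in DMSO and 1214 and 2628 CPM in wogonin. In each of these sums wogonin 4 was far above the other 3 libraries. In these TMM-scaled exon reads wogonin 3 was above both DMSO libraries for complexes I and IV and between them for the ATP synthase. For complex IV this depended on the count used. In TMM-scaled gene reads wogonin 3 lay between the DMSO libraries for each of the 3 complex IV genes.

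How far wogonin 3 stood from DMSO depended on the scaling. With TMM on exon reads 11 of the 13 genes, all but MT-CO1 and MT-ATP6, were higher in both treated libraries than in both DMSO libraries, against 41.0% of all genes tested. None of the 13 was lower in both treated libraries, against 40.9% of all genes. With library totals in place of TMM the number was 7 (35.3% of all genes were higher and 47.0% lower in that scaling), and it was 4 in total gene reads with TMM (backgrounds 40.1% higher and 39.9% lower). The number lower in both treated libraries was 0 in these settings too. The median log2 ratio of wogonin 3 to the DMSO mean was 0.19, 0.10 and 0.06 in these settings, and that of wogonin 4 was 1.14, 1.04 and 1.10.

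Relative to each other the mRNAs kept nearly the same proportions, with MT-ND3 and MT-ND2 as the main departures. To set aside the total, each gene was expressed as a share of the mitochondrial exon reads of its library (189199 and 171241 reads in DMSO 1 and 2, 183626 and 341822 in wogonin 3 and 4), a measure chosen after seeing the data. The shares add up to 100%, so a higher share of 1 gene lowers the others. MT-ND3 took 1.79% and 1.47% in DMSO 1 and 2, 3.18% in wogonin 3 (95% Wilson interval 3.11 to 3.27) and 1.74% in wogonin 4. The share in wogonin 4 lay within the DMSO range, and that in wogonin 3 was 0.96 log2 units above the DMSO mean. The counts of MT-ND3 and its neighbour MT-ND4L had a ratio of 1.53 and 1.18 in DMSO, 2.43 in wogonin 3 and 1.28 in wogonin 4. MT-ND3 was thus high within the mitochondrial reads of wogonin 3 alone, while in wogonin 4 it was high together with the other mRNAs.

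MT-ND2 took 8.77% and 8.43% of the mitochondrial exon reads in DMSO, 10.6% in wogonin 3 and 10.1% in wogonin 4, higher in both treated libraries. Its share among uniquely placed reads was also higher in both, at 5.44% and 5.16% in DMSO and 6.53% and 5.94% in wogonin. MT-CO1 showed the opposite, with 23.4% and 23.6% in DMSO and 21.7% and 20.7% in wogonin. MT-CO3 (9.07% and 9.30% against 8.85% and 8.39%) was also lower and MT-ND4L (1.17% and 1.25% against 1.31% and 1.36%) higher in both treated libraries, by smaller amounts. The shares of the remaining mRNAs, MT-ND3 included, overlapped between the groups. For the 11 genes other than MT-ND2 and MT-ND3 the share in each treated library lay between -0.18 and 0.18 log2 units from the DMSO mean. These differences between shares were not tested.

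**Figure D4:**
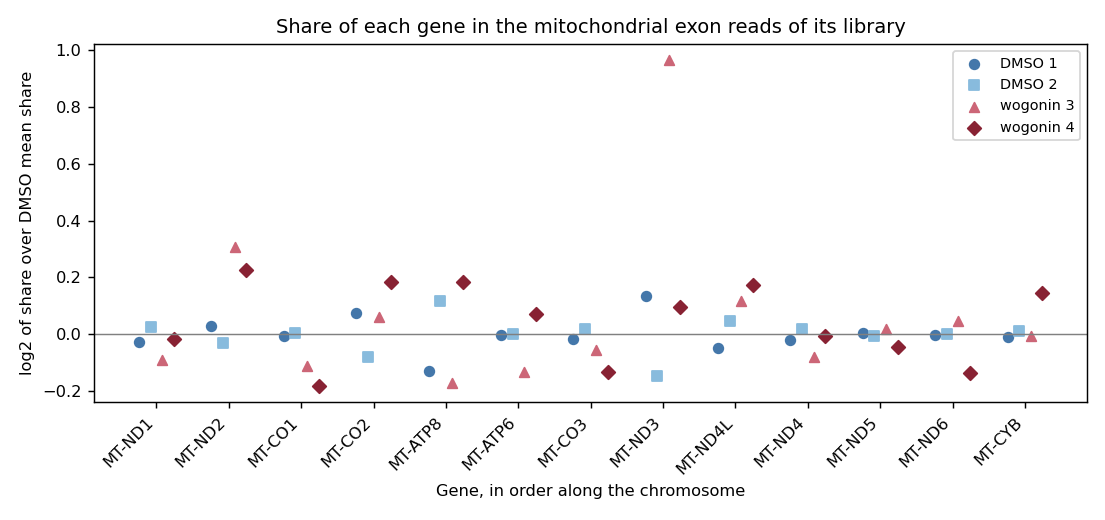
Share of each gene in the mitochondrial exon reads of its library, as log2 of the ratio to the DMSO mean share (y axis), with genes in chromosome order and 1 symbol per library. MT-ND3 in wogonin 3 lies at 0.96, MT-ND2 lies at 0.31 and 0.23 in the treated libraries, and the other shares of the treated libraries lie between -0.18 and 0.18.

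Both rRNAs had their highest level in wogonin 4, and neither passed the test between the groups. MT-RNR1, the rRNA of the small mitochondrial ribosomal subunit (ENSG00000211459, MT 648 to 1601), stood at 363 and 303 TMM-scaled CPM of gene reads in DMSO and at 357 and 567 in wogonin 3 and 4. MT-RNR2, that of the large subunit (ENSG00000210082, MT 1671 to 3229), stood at 3683 and 3007 in DMSO and at 2998 and 5160 in wogonin. Wogonin 3 lay within the DMSO range for MT-RNR1 and just under it for MT-RNR2, and wogonin 4 was the highest library for both. The fit of gene reads over 15201 genes gave log2 fold changes of 0.47 ± 0.33 and 0.29 ± 0.38 (edgeR adjusted p = 0.33 and 0.59), so 0 of 2 were called, where 59.1% of all genes were called in either direction and 29.8% higher. At an unadjusted p under 0.05 the count was also 0, and DESeq2 and limma-voom called neither, while MT-RNR1 was called in the fit without wogonin 3.

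Both rRNAs together had 26.2% and 24.7% as many reads as the 13 mRNAs in the DMSO libraries, against 22.2% in wogonin 3 and 19.4% in wogonin 4. The treated libraries were below both DMSO libraries. For MT-RNR2 alone the values were 23.9% and 22.4% against 19.8% and 17.5%. For MT-RNR1 they overlapped, with 2.35% and 2.26% in DMSO, 2.36% in wogonin 3 and 1.92% in wogonin 4. Per kilobase, MT-RNR2 had 6.21 and 6.08 times the reads of MT-RNR1 in DMSO and 5.14 and 5.57 times in wogonin. Because the libraries were made with an mRNA kit, these ratios describe the counted reads and not rRNA levels. The mRNA counts include reads that were not placed uniquely, and whether the rRNA counts do is not given in the sources used here.

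Nuclear genes with symbols of respiratory complexes I to V did not show the split between the treated libraries. Chosen by symbol after seeing the data, 77 such genes were tested, of which 47 were higher and 1 was lower after wogonin, against 32.3% and 31.5% of all genes. They include 3 genes of complex II, which has no gene on the mitochondrial chromosome, and all 3 were higher. The 1 lower gene was placed in complex V by its symbol, which alone does not establish that a gene encodes a subunit. The median log2 ratio of the 77 genes to the DMSO mean was 0.36 in wogonin 3 and 0.23 in wogonin 4, where the 13 mitochondrial mRNAs had 0.19 and 1.14. The difference between these groups of genes was not tested.

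The nuclear genes that maintain, transcribe and process mitochondrial DNA were read from 4 lists of 66 genes, of which 65 were found in the tables and 63 were tested. After wogonin 30 were higher, 12 were lower and 21 did not pass, against 32.3% higher and 31.5% lower among all genes tested. The median log2 fold change over the 63 was 0.15. The lists were not tested against each other.

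Of the 9 genes listed under mitochondrial transcription 3 were lower and 0 higher, while 6 missed the threshold. The share that was lower is near that of all genes. Their median log2 fold change was -0.21. POLRMT, the mitochondrial RNA polymerase, stood at 94.8 and 82.7 CPM in DMSO and 93.8 and 98.0 CPM in wogonin, and the groups overlapped (difference 0.11 on the log2 scale, edgeR adjusted p = 0.22). TFB2M, the factor that opens the promoter for the polymerase, fell from 17.4 and 18.2 CPM to 13.07 and 12.999 CPM (-0.45 ± 0.13 on the log2 scale, edgeR adjusted p = 0.0052). DESeq2 did not call it (adjusted p = 0.077). TFB1M, a related methyltransferase of the small-subunit rRNA, fell by 0.47 on the log2 scale (edgeR adjusted p = 0.0012). MTERFD3, a member of the termination factor family, fell by 0.39 on the log2 scale in total exon reads (edgeR adjusted p = 0.031), but its log2 fold change was -0.06 in unique exon reads and 0.18 in unique gene reads, neither past the threshold. The elongation factor TEFM did not pass (log2 fold change -0.21, edgeR adjusted p = 0.28).

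In the list of DNA replication and the nucleoid 10 of 18 genes were higher and 3 lower (32.3% and 31.5% of all genes), and the other 5 missed the threshold. The median log2 fold change was 0.26. POLG, the catalytic subunit of the mitochondrial DNA polymerase, rose from 82.7 and 76.5 CPM to 116 and 125 CPM (0.60 ± 0.07 on the log2 scale, edgeR adjusted p = 2.4e-06). TFAM, which packages the DNA and activates its promoters, stood at 51.1 and 54.6 CPM in DMSO and 45.5 and 43.1 CPM in wogonin, lower in both treated libraries (log2 fold change -0.25, edgeR adjusted p = 0.017). That call was lost with DESeq2 and in the fits without DMSO 2 or without wogonin 4 (adjusted p = 0.10, 0.12 and 0.083). The 3 with the smallest adjusted p were LIG3, a DNA ligase of nucleus and mitochondria, which fell by 0.88 on the log2 scale, RNASEH1, which removes RNA primers (0.80), and the inner membrane gene MPV17 (0.87).

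Of 28 tested genes of RNA processing, modification and stability, 16 were higher and 2 lower (32.3% and 31.5% of all genes), and the other 10 missed the threshold. Here too the median log2 fold change was 0.26. LRPPRC, which binds and stabilises mitochondrial mRNAs, rose from 604 and 578 CPM to 950 and 938 CPM (0.68 ± 0.05 on the log2 scale, edgeR adjusted p = 2.1e-08). Its partner SLIRP did not pass, at 47.2 and 48.7 CPM in DMSO and 52.8 and 53.2 CPM in wogonin (a difference of 0.15 on the log2 scale, edgeR adjusted p = 0.13). TBRG4, a FASTK family RNA-binding gene, rose by 0.79 on the log2 scale and the pseudouridine synthase PUS1 by 0.87. Both treated libraries had like levels in these genes, unlike in the mitochondrial mRNAs other than MT-ND3.

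Among regulators of mitochondrial biogenesis 4 of 8 tested genes were higher and 4 were lower, against 32.3% and 31.5% of all genes. PPRC1, a coactivator of the PGC-1 family, rose by 0.86 on the log2 scale and the nuclear receptor ESRRA by 0.89. GABPB1, a subunit of the transcription factor NRF-2, fell by 1.05 on the log2 scale. PPARGC1A and ESRRG did not pass the filter on low counts.

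**Figure D5:**
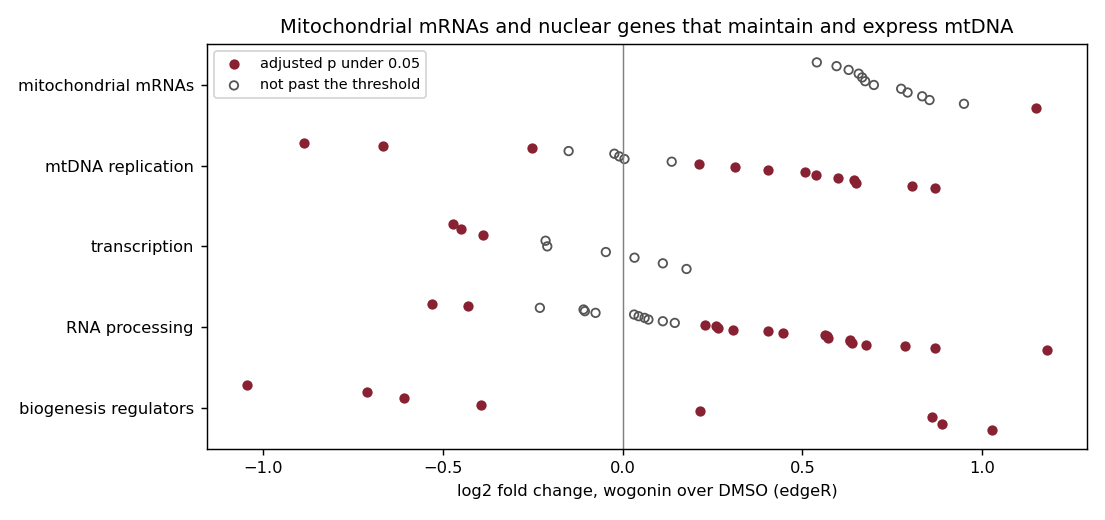
Log2 fold change of wogonin over DMSO (x axis, edgeR) for the 13 mitochondrial mRNAs (top row) and the 63 tested nuclear genes of 4 lists (lower rows), 1 point per gene, spread vertically by rank. Filled points passed an adjusted p of 0.05: 1 of the 13 mitochondrial mRNAs, with values from 0.54 to 1.15, and 42 of the 63 nuclear genes, which lie on both sides of 0. Of all genes tested, 63.8% passed in either direction.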

How the data were processed

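Per the file headers, the authors deposited for each library read counts per gene (exon and whole-gene reads, total and unique), with TPM and RPKM values and 2 fractions (unique over total exon reads, intron over gene reads). Of builds, GRCh 37 and hg 19 stand in the submitters' processing notes. Not given in the sources used here are aligner, counting program, annotation release and strand setting. RPKM and the fractions were not used for results. Counts were tested as deposited in R 4.3.3 with edgeR 4.0.16 (its filterByExpr filter, TMM factors, robust quasi-likelihood fit, treatment as single term, 2-sided), on exon reads and, for genes without listed exons, on gene reads. SE is the log2 fold change over the root of the F statistic. CPM in the report is TMM-scaled, except for marker genes and read floors, which use library totals. The script was tested on simulated data. Members and lists were chosen with earlier results of these data known. Nuclear genes were named by rule: in each list the 3 lowest adjusted p-values, plus POLRMT, TFAM, TFB2M, TEFM, POLG, LRPPRC and SLIRP; PPARGC1A and ESRRG are named as untested. Of nuclear copies the 5 with most reads are named, and MTND2P28, chosen after its values were seen, for its sequence. Intervals and floors cover counting error only. Shares of all genes called under an alternative were added after seeing the data. Alternatives were other scalings, filters, count columns, DESeq2 1.42.0, limma-voom (limma 3.58.1), a non-robust fit and each library left out.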

Additional observations from a re-analysis of the deposited data

How the results depend on the processing

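The count of mitochondrial mRNAs past the threshold depended on how the spread was modelled. It was 1 under 10 of 15 alternatives, 2 with DESeq2, 12 with limma-voom and 13 with a non-robust fit, and between 1 and 11 when a library was left out: 11 without wogonin 3 and 5 without wogonin 4. MT-ND3 was not among the genes called without either treated library. The number of rRNA genes past the threshold was 0, but 1 (MT-RNR1) with the non-robust fit, and between 0 and 1 with a library left out (1 without wogonin 3). The median log2 fold change of the 13 mRNAs, 0.70, lay between 0.18 (without wogonin 4) and 1.15 (without wogonin 3) and was 0.60 with library totals alone, where all genes had a median of -0.09. The difference in share of the 13 mRNAs was 0.81 points in unique exon reads, 0.72 in total gene reads and between 0.12 and 1.48 with a library left out. For all 37 genes it was 0.80 in total and 0.82 in unique gene reads. The number of nuclear list genes past the threshold lay between 35 and 43 and that of all genes between 6701 and 9141. MTERFD3 changed sign in unique gene reads (0.18). The cause was not tested. No paired analysis was possible because the groups share no replicate numbers.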
